A study of Mus musculus with 21 samples.

Results

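The genes described here are the mouse zinc finger genes named Zfp followed by a number that were expressed in the embryonic forebrain. A gene was taken as a member when its row carried a RefSeq mRNA accession and its RPKM (reads per kilobase of transcript, scaled by the reads mapped in the library) averaged at least 5 over the 3 brain transcriptome libraries. This rule kept 246 genes of the 362 Zfp mRNA rows found by name alone, out of 20917 mRNA rows and 23827 rows in all. The members just above the minimum were Zfp955b at 5.02 RPKM, Zfp524 at 5.12 RPKM and Zfp248 at 5.20 RPKM. The rows just below it were Zfp446 at 4.99 RPKM, Zfp472 at 4.97 RPKM and Zfp719 at 4.92 RPKM.

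All 21 libraries came from mouse embryos at embryonic day 14.5 that carried an allele of a ribosomal protein joined to a red fluorescent protein, Gt(ROSA)26Sor-mCherry-Rpl10a+/-, which is switched on where Cre recombinase has acted and was made from a targeted stem cell line. Translating ribosome affinity purification (TRAP) pulls down the tagged ribosomes with the mRNAs they hold, and this RNA is called the translatome, whereas RNA purified from the whole homogenate is called the transcriptome. Embryos of the genotype Sox2Cre+/-;Gt(ROSA)26Sor-mCherry-Rpl10a+/-, in which Cre acts in the whole embryo proper, gave 3 transcriptome and 3 translatome libraries of the forebrain and 3 of each of the kidney. Embryos of the genotype Cdh5CreERT2+/-;Gt(ROSA)26Sor-mCherry-Rpl10a+/-, in which a tamoxifen-dependent Cre acts in endothelial cells (ECs), gave 3 brain EC and 3 kidney EC translatome libraries. The study gave tamoxifen by oral gavage ahead of the harvest. Of the Cre lines used only this one depends on it, so EC identity and the drug cannot be told apart against the other lines. Embryos of the genotype Emx1Cre+/-;Gt(ROSA)26Sor-mCherry-Rpl10a+/-, in which Cre acts in the neural cells of the dorsal telencephalon, gave 3 Emx1-lineage translatome libraries of the forebrain. Each homogenate pooled organs of more than 1 embryo, per the study's sample list, so that a replicate is a pool and not an animal. The brain and kidney translatome libraries were made from the same homogenates as the transcriptome libraries of the same number, whereas the EC and Emx1 libraries came from other tissue samples and other sequencing runs than the whole-organ libraries, so that cell type and run cannot be told apart.

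Zinc finger proteins of the C2H2 kind fold around zinc ions held by pairs of cysteines and histidines, and arrays of such fingers read DNA sequence. In mammals the largest subfamily joins the array to a KRAB domain, which recruits the corepressor Trim28 and through it histone methylation and heterochromatin, and its targets include transposable elements and imprinted loci. The symbol Zfp is given by the finger and not by descent, so that it also covers factors of neural development and proteins that bind RNA through CCCH fingers.

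The finger coding sequences of members at the ends of the comparisons below are printed here to show what the name rests on. The DNA coding for the earliest finger pattern in the protein, or for Zfp692 the pattern numbered 2, is given 5′ to 3′ on the coding strand, from GENCODE transcripts on GRCm38, with the codons of the zinc-binding cysteines and histidines in capitals. Each stretch lies within a coding exon. Zfp692 and Zfp57 were the members whose share in the translatome was lowest against the transcriptome, Zfp187 changed most between organs, Zfp637, Zfp428 and Zfp580 were highest in the translatome, Zfp811 was the member that differed most between the EC populations, and Zfp36l1 and Zfp36l2 were the members highest in brain ECs and carry CCCH fingers, in which 3 cysteines and 1 histidine hold the zinc.
Zfp692 (chr11:58311498-58311566, plus strand, exon 10 of 12): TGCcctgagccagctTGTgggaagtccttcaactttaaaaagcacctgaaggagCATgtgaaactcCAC
Zfp57 (chr17:37009679-37009741, plus strand, exon 5 of 5): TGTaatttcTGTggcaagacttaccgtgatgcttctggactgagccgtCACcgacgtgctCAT
Zfp187 (chr13:21445456-21445518, minus strand, exon 4 of 4): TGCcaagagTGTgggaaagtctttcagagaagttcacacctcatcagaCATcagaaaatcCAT
Zfp637 (chr6:117845186-117845248, plus strand, exon 3 of 3): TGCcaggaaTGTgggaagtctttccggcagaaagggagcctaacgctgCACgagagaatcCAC
Zfp428 (chr7:24515450-24515512, plus strand, exon 3 of 3): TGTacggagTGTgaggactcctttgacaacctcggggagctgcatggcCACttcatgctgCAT
Zfp580 (chr7:5053096-5053158, plus strand, exon 2 of 2): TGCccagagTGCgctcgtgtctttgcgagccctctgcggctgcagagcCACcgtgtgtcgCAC
Zfp811 (chr17:32798417-32798482, minus strand, exon 4 of 4): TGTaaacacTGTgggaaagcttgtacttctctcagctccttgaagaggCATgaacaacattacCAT
Zfp36l1 (chr12:80110189-80110248, minus strand, exon 2 of 2): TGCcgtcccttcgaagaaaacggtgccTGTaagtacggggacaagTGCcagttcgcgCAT
Zfp36l2 (chr17:84186668-84186727, minus strand, exon 2 of 2): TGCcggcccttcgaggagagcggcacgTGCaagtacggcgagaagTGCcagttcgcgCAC

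The label was checked against the coded proteins. A coding transcript was matched for 245 members, and 229 of them held at least 2 C2H2 patterns, with a median of 10 and a maximum of 34. A single pattern was found in 10 members and none in 6, which were Zfp503, Zfp330, Zfp703, Zfp259, Zfp36l1 and Zfp36l2, so for these the C2H2 pattern searched was not found. A KRAB signature before the fingers was found in 102 members and not found in 143. Members with the signature had more fingers (median 12 against 8) and a lower coding GC content (median 45.1% against 54.2%) at a like transcript length (median 3459 against 3552 bases). Members lay on 20 chromosomes, with 56 on chromosome 7, 29 on chromosome 17 and 20 on chromosome 8. Because such genes arose by duplication, reads of some members may have been shared with copies: 29 members had at least 5% of their stretches of 50 bases in a transcript of another gene and 10 had at least 20%, among them Zfp524, Zfp653, Zfp932 and Zfp955b, whose values are uncertain. The exons of 40 members overlapped an exon of another gene over at least 10% of their bases, and the kit does not mark strand, so that the counts of Zfp36l1, Zfp335, Zfp187, Zfp276, Zfp26, Zfp428, Zfp511, Zfp367, Zfp703 and Zfp955b cannot be told apart from antisense RNA there.

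Library depth ranged from 21760652 to 79231692 reads on annotated rows. The defining endothelial markers summed to 2926 to 3018 RPKM in the brain EC and 2450 to 2873 RPKM in the kidney EC libraries, against 108 to 172 RPKM in the whole-forebrain and 324 to 473 RPKM in the whole-kidney libraries. The dorsal telencephalic markers summed to 1124 to 1201 RPKM in the Emx1 libraries and to 543 to 563 RPKM in the brain translatome, and the ventral markers to 56.6 to 60.1 RPKM and 241 to 263 RPKM. Neural markers still summed to 390 to 495 RPKM in the brain EC libraries, against 2145 to 2166 RPKM in the brain translatome, with none of the 7 markers under 1 RPKM on average.

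Zfp genes were expressed at low to moderate levels in every library type. The median member stood at 12.6 RPKM in the brain transcriptome, and 12 members reached 50 RPKM there. The median was 9.97 RPKM in the brain translatome, 10.5 RPKM in the Emx1 translatome, 7.73 RPKM in the brain EC translatome, 12.0 RPKM in the kidney transcriptome, 10.5 RPKM in the kidney translatome and 7.72 RPKM in the kidney EC translatome. Since members were chosen for their level in the brain transcriptome, their high level there is not a result. In the kidney transcriptome, which the choice did not use, 212 of the 246 members still reached 5 RPKM and 1 fell below 1 RPKM.

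The most abundant member in the brain transcriptome was Zfp238 (now Zbtb18), a repressor needed for the development of cortical neurons, at 146, 157 and 147 RPKM. Next stood Zfp207, a spindle protein that binds Bub3, at a mean of 138 RPKM, and Zfp57, which keeps the DNA methylation of imprinted loci, at 127, 140 and 144 RPKM. These top members did not keep their order in the kidney transcriptome, where Zfp207 averaged 160 RPKM, Zfp57 averaged 32.2 RPKM and Zfp238 averaged 16.4 RPKM. Zfp664 at 78.8 RPKM, Zfp428 at 77.5 RPKM and Zfp219 at 74.1 RPKM followed in the forebrain, and the means of these 3 lay close together. The members whose profile over the 7 group means was most like that of the median member were Zfp354c (Pearson r = 0.99), Zfp383 (r = 0.98), Zfp317 (r = 0.98) and Zfp81 (r = 0.98), computed over 7 centred log2 values. Zfp354c averaged 28.7 RPKM in the brain transcriptome, 17.7 RPKM in the brain translatome and 9.28 RPKM in brain ECs, and 20.9, 19.0 and 9.04 RPKM in the matching kidney groups.

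Summed over all members, Zfp genes held 1.34% ± 0.0311 (SD, n = 3) of the mRNA RPKM of the brain transcriptome and 0.981% ± 0.0185 of that of the brain translatome. In the kidney the share was 1.13% ± 0.0126 in the transcriptome and 0.996% ± 0.0214 in the translatome. It was 1.08% ± 0.0040 in the Emx1 translatome, 0.763% ± 0.0226 in brain ECs and 0.791% ± 0.0307 in kidney ECs. In each organ the 3 translatome libraries lay below the 3 transcriptome libraries and the EC libraries lay lowest. A share is relative to a library total. With counts scaled by totals, the median log2 fold change of all mRNA rows was −0.28 for brain ECs against the brain translatome. It was −0.39 for kidney ECs against the kidney translatome, so a lower value in ECs is not particular to Zfp genes. Since members were chosen for their level in the brain transcriptome, its high share is not a result, and the forebrain order is a description. The brain and kidney EC means differed by less than the SD of the kidney EC libraries, and the brain and kidney translatome means by less than the SD of either. In pooled tissue such as this, fewer cells that express a gene and less RNA of it per cell cannot be told apart.

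**Figure D1:**
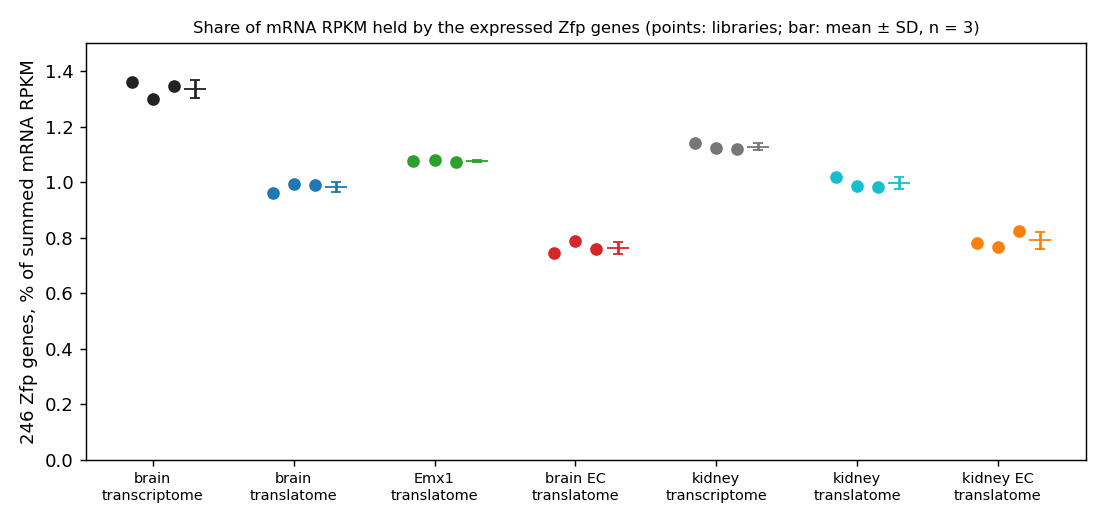
Share of the summed mRNA RPKM (percent, vertical axis) held by the 246 expressed Zfp genes in each of the 21 libraries, by group, with the mean and SD of 3 libraries beside the points. The brain transcriptome, whose levels chose the members, stands highest at 1.34%, which is a description. The brain and kidney EC translatomes stand lowest at 0.763% and 0.791%. With counts scaled by library totals the median mRNA row was also lower in the ECs of each organ than in its translatome.

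The comparison of translatome with transcriptome asks which mRNAs are held by ribosomes more or less than their abundance in the homogenate. In the forebrain most members that differed were lower in the translatome. Against the brain transcriptome 116 of 246 members were called lower and 27 higher, with a median log2 fold change of −0.32 (edgeR, adjusted p below 0.001). Of all 19446 rows tested, 18.5% were called lower and 18.6% higher, and of mRNA rows at 5 RPKM or more 27% were lower and 31.2% higher, with a median of 0.03. Because the choice of members used the brain transcriptome, which by itself tilts their ratio downward, these member counts are given as a description. The Zfp rows found by name alone were not chosen on any value, and of the 360 that could be tested 137 were called lower and 28 higher, with a median of −0.32. Within the sequencing run that held libraries of both kinds, 1 transcriptome against 3 translatome libraries, 86 members were called lower and 9 higher with a median of −0.34, and 97 rows by name alone were lower and 10 higher. There the lone transcriptome library was assumed to vary like the others, and 13.8% of all rows were lower and 12.4% higher.

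Zfp692 was the member lowest in the forebrain translatome. Its RPKM was 24.3, 23.0 and 21.8 in the transcriptome and 4.17, 3.24 and 3.72 in the translatome (log2 fold change −2.60 ± 0.09, SE). Zfp57 was at 127 to 144 RPKM and then at 39.3, 39.9 and 37.5 RPKM (−2.23 ± 0.06). Zfp187 (now Zscan26) stood at 20.6, 18.7 and 20.1 RPKM and then at 4.49, 4.63 and 4.42 RPKM (−2.10 ± 0.07). The libraries of the 2 kinds did not overlap for any of these 3 members, which the rule for naming members required. In all, 17 of 246 members were called lower by over 2-fold, beside 549 of 9632 mRNA rows at 5 RPKM or more. Zfp280c, Zfp945 and Zfp687, the last a member of a chromatin complex with Zfp592, followed at −1.31 ± 0.07, −1.30 ± 0.09 and −1.23 ± 0.06.

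At the other end the 3 highest members had short transcripts, but the low end held short ones too. The matched GENCODE transcripts of Zfp692 and Zfp57 had 1887 and 1749 exon bases. Zfp428 was at 72.5, 80.7 and 79.3 RPKM in the brain transcriptome and at 186, 149 and 162 RPKM in the translatome (1.13 ± 0.07). Zfp580 was at 21.5, 24.5 and 22.5 RPKM and then at 44.0, 49.9 and 49.2 RPKM (1.09 ± 0.08). Zfp637 was at 40.1, 47.6 and 45.6 RPKM and then at 89.6, 91.3 and 88.8 RPKM (1.04 ± 0.06). These were the 3 members called higher by over 2-fold, beside 566 of 9632 mRNA rows at 5 RPKM or more. Their libraries did not overlap, as the naming rule required. The transcripts measured 1174, 1111 and 1108 bases against a member median of 3522 bases. Zfp771 at 0.91 ± 0.08, Zfp688 at 0.80 ± 0.10 and the RNA-binding protein gene Zfp385a at 0.70 ± 0.05 followed.

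The kidney libraries took no part in choosing the members. The fold changes of the organs correlate across genes, as given below, so the choice on the brain transcriptome can still tilt the kidney member counts. They are given as a description, and the rows by name alone are free of that choice. Against the kidney transcriptome 68 members were lower in the kidney translatome and 21 higher, with a median log2 fold change of −0.13 (edgeR, adjusted p below 0.001). The background was 15.8% lower and 14.9% higher over all 19336 rows, and 25.3% lower and 25.2% higher over mRNA rows at 5 RPKM or more, whose median was 0.01. Thus 27.6% of the members were lower, close to the share of mRNA rows of like level, and 8.54% were higher, below that share. By name alone 73 of 360 rows were lower and 24 higher (20.3% and 6.67%), with a median of −0.10. With the shared homogenate as a block, 108 members were lower and 49 higher, and by name alone 121 rows were lower and 66 higher, beside 25.1% lower and 24% higher of all rows under the same block. Within the run that held 3 transcriptome libraries and 1 translatome library, 39 members were lower and 11 higher with a median of −0.16, beside 9.36% lower and 10.2% higher of all rows. The lone translatome library was assumed to vary like the others there. Markers of red blood cells moved with this comparison: 4 of the 5 listed genes were found, Hba-a1 was listed at 0 in every group, and their summed level ranged from 299 to 568 RPKM in the kidney transcriptome and from 80.4 to 154 RPKM in the translatome (from 150 to 370 and from 82.9 to 176 RPKM in the forebrain). Their part in the result was not tested.

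Zfp692 was again the lowest member in the kidney translatome, at 22.6, 21.5 and 23.0 RPKM in the transcriptome and 4.79, 5.90 and 5.28 RPKM in the translatome (log2 fold change −2.07 ± 0.08, adjusted p = 4.69e-08). Zfp57 was at 33.2, 30.2 and 33.1 RPKM and then at 17.3, 14.1 and 14.4 RPKM (−1.47 ± 0.08, adjusted p = 1.97e-07). Zfp276 fell by 1.09 ± 0.10, Zfp653 by 1.06 ± 0.08, Zfp579 by 0.94 ± 0.08 and Zfp101 by 0.93 ± 0.09 on the log2 scale. For each of these the kidney translatome libraries lay below all transcriptome libraries, as the naming rule required. In all, 4 of 246 members were called lower by over 2-fold, beside 257 of 9627 mRNA rows at 5 RPKM or more.

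Higher in the kidney translatome were Zfp637, at 26.4, 28.3 and 26.1 RPKM in the transcriptome and 46.8, 48.2 and 46.9 RPKM in the translatome (0.81 ± 0.06, adjusted p = 9.16e-07), and Zfp385a, at 27.2, 28.4 and 26.3 RPKM and then at 49.2, 45.6 and 46.8 RPKM (0.79 ± 0.05, adjusted p = 3.19e-07). Zfp428 rose by 0.78 ± 0.06, Zfp580 by 0.74 ± 0.08, Zfp511 by 0.69 ± 0.07 and Zfp706 by 0.61 ± 0.05 on the log2 scale. No member rose by over 2-fold in the kidney, where 251 of 9627 mRNA rows at 5 RPKM or more were called higher by that much.

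**Figure D2:**
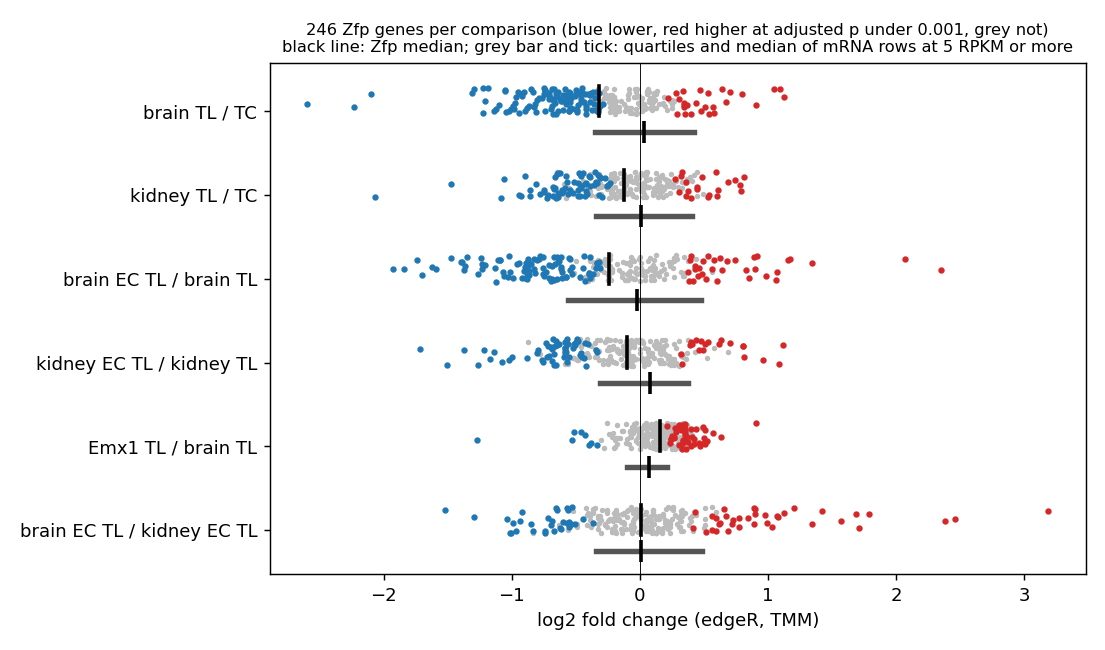
Log2 fold change (edgeR with TMM scaling, horizontal axis) of each of the 246 Zfp genes in 6 comparisons, with TL for translatome and TC for transcriptome; blue and red points passed adjusted p below 0.001, grey points did not, the black line is the Zfp median and the bar below it spans the quartiles of mRNA rows at 5 RPKM or more. Zfp medians lie left of those of the mRNA rows in both translatome to transcriptome comparisons and in both EC comparisons, and right of them for the Emx1 lineage.

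The organs can be set side by side, since no library is shared between them. Among the 246 members 57 were called lower and 14 higher in the translatome of both organs. A further 58 were lower in the forebrain and not called in the kidney, 11 were lower in the kidney and not called in the forebrain, and 86 were called in neither organ. Those higher in the forebrain alone were 13 and in the kidney alone 6. The share of other mRNA rows called in both organs was not counted, so these counts are a description. Zfp367 was the member called lower in the forebrain (−0.70 ± 0.08) and higher in the kidney (0.33 ± 0.05), and it is named after its values were seen. Across the 246 genes, which are not independent replicates, the log2 fold changes of the organs correlated with a Spearman rho of 0.74 and a Pearson r of 0.80, beside a rho of 0.80 and an r of 0.75 over 9627 mRNA rows at 5 RPKM or more.

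The size of the difference was smaller in the kidney. Of the 361 Zfp rows by name alone that could be tested for a difference between the organs' fold changes, 33 had a higher value in the kidney and 4 a lower one (interaction term in edgeR over 12 libraries, adjusted p below 0.001), with a median difference of 0.22. Of all 20108 rows 4.12% were called higher and 2.35% lower, and of mRNA rows at 5 RPKM or more 7.24% and 4.67%. With the shared homogenate as a block the counts were 88 and 7, beside 9.84% higher and 7.3% lower of all rows. The members Zfp187, Zfp367, Zfp192, Zfp26, Zfp266 and Zfp930 stood at the top of the called rows. For Zfp187 the kidney transcriptome held 23.0, 23.7 and 23.2 RPKM and the kidney translatome 13.0, 12.8 and 12.6 RPKM, so that its log2 fold change there was −0.86 ± 0.04 against −2.10 in the forebrain, a difference of 1.26 ± 0.07. For Zfp26 the value was −0.31 in the kidney and −1.22 in the forebrain, and for Zfp266 it was 0.21 and −0.67. The 4 rows with the lower value in the kidney were Zfp622, a factor of large ribosomal subunit maturation, at −0.33 in the kidney and 0.34 in the forebrain, and Zfp512, Zfp467 and Zfp358. Since the brain transcriptome enters these differences, the values of single members are a description.

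**Figure D3:**
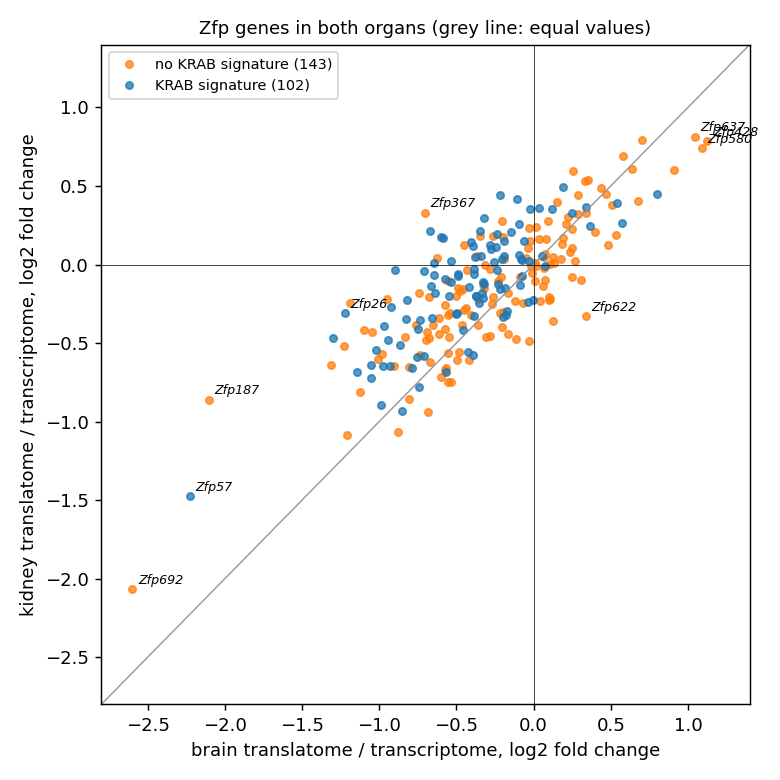
Translatome to transcriptome log2 fold change of each Zfp gene in the forebrain (horizontal axis) and in the kidney (vertical axis), with blue points for the 102 members with a KRAB signature and orange points for the 143 without; the grey line marks equal values. Zfp187, at −2.10 in the forebrain and −0.86 in the kidney, lies farthest above the line, and Zfp622, at 0.34 and −0.33, lies below it.

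Transcript length went with these ratios in members and in other mRNAs. In the forebrain the median log2 fold change was 0.34 for the 21 members under 2000 bases, and it was −0.28 for the 74 members of 3000 to 4000 bases and −0.61 for the 17 members over 7000 bases, whereas mRNA rows of the same lengths at 5 RPKM or more had medians of 0.55, −0.10 and −0.45. Over the 246 members the Spearman rho between length and log2 fold change was −0.38 in the forebrain and −0.24 in the kidney, given as a description since all genes share the libraries. At each of 6 length ranges the forebrain median of the members lay below that of the mRNA rows. In the kidney the members lay below the mRNA rows in 4 of the 6 ranges, with medians of 0.22 beside 0.33 under 2000 bases, −0.07 beside 0.01 at 2000 to 3000 bases, −0.32 beside −0.18 at 5000 to 7000 bases and −0.31 beside −0.22 over 7000 bases. They lay close to them in the other two, at −0.08 beside −0.09 for 3000 to 4000 bases and −0.11 beside −0.13 for 4000 to 5000 bases. Members were longer than the mRNA rows, with a median of 3522 against 2892 bases.

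Coding GC content went with the organ difference. The 41 members with a coding GC below 42% had a median kidney minus brain difference of 0.45, and the medians fell through 0.33, 0.18, 0.10 and 0.05 to −0.05 for the 64 members at 58% or more. In mRNA rows at 5 RPKM or more the medians were 0.21, 0.11, 0.04, −0.05, −0.06 and −0.04 over the same ranges. The Spearman rho between GC content and the difference was −0.57 over 245 members and −0.15 over 9589 mRNA rows. In the forebrain the members below 42% GC had a median log2 fold change of −0.49 and those at 58% or more −0.02, while in the kidney these medians were −0.06 and −0.02 with the lowest, −0.41, in the 20 members of 54 to 58% GC. Length, GC content and the KRAB signature were not separated from each other here.

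**Figure D4:**
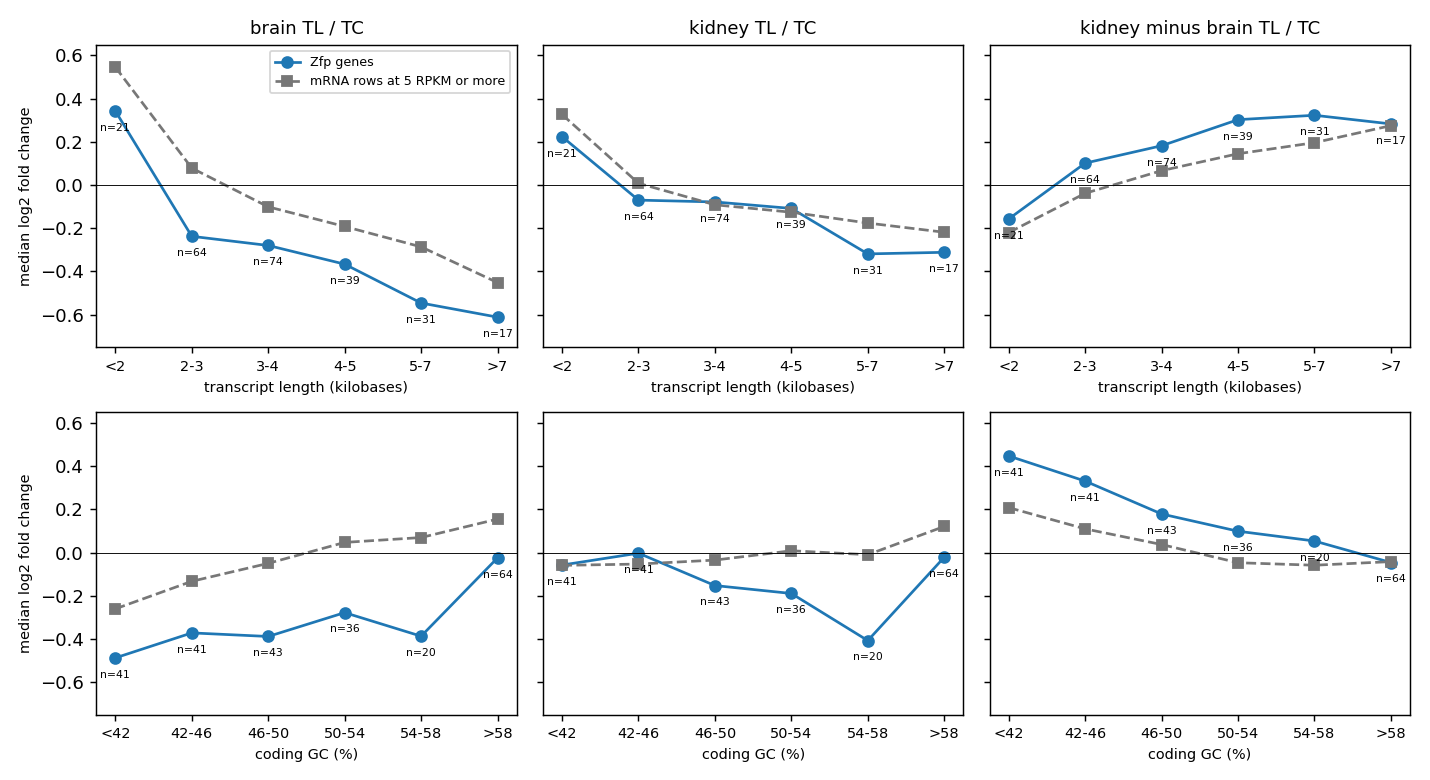
Median log2 fold change (vertical axis) of Zfp genes (blue circles, n beside each point) and of mRNA rows at 5 RPKM or more (grey squares) by transcript length in kilobases (upper panels) and by coding GC content in percent (lower panels), for the forebrain, the kidney and their difference, with TL for translatome and TC for transcriptome. Forebrain medians of the Zfp genes lie below those of the mRNA rows in every range, from 0.34 to −0.61 by length, and the organ difference runs from 0.45 to −0.05 with rising GC.

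Members with a KRAB signature, the class that represses through Trim28, were set beside members without it. In the forebrain 54 of 102 with the signature were called lower and 5 higher (median −0.38), and 62 of 143 without it were lower and 22 higher (median −0.21), as a description. In the kidney 22 of 102 were lower and 3 higher (median −0.11), and 46 of 143 were lower and 18 higher (median −0.15). As shares, 21.6% and 32.2% were lower in the kidney, beside 25.3% of mRNA rows at 5 RPKM or more, and 2.94% and 12.6% were higher, beside 25.2%. The difference between the classes was not tested. By number of fingers, the 36 members with over 15 fingers had medians of −0.46 in the forebrain and −0.21 in the kidney, and the 16 members with 0 or 1 finger −0.01 and −0.10.

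Members were also listed by role, and their counts stand beside 27% lower and 31.2% higher of mRNA rows at 5 RPKM or more in the forebrain and 25.3% and 25.2% in the kidney. Of 3 members that act on imprints or retroelements, Zfp57, Zfp445 and Zfp932, all were called lower in the forebrain translatome, and 2 in the kidney: Zfp445, which also keeps imprints, stood at −1.06 ± 0.05 in the forebrain and −0.64 ± 0.05 in the kidney, and Zfp932, whose reads are shared with a near copy, at −0.60 ± 0.08 and 0.18 ± 0.09, the last not called. Of 16 members that act on transcription and chromatin 12 were lower and 1 higher in the forebrain, and 7 lower and 4 higher in the kidney, where Zfp143, an activator at many promoters, fell by 0.61 ± 0.07 and Zfp592 by 0.58 ± 0.04, and where Zfp161 (now Zbtb14) rose by 0.40 ± 0.07 and Zfp64 by 0.38 ± 0.06. The 25% of this list that rose in the kidney is the background share. Of 12 members that bind RNA or act on ribosomes 4 were lower and 3 higher in the forebrain, and 3 lower and 1 higher in the kidney, with Zfp207 at −0.67 ± 0.05 and Zfp598, a ubiquitin ligase of collided ribosomes, at −0.39 ± 0.04. Of 10 members with roles in neural development 2 were lower and 1 higher in the forebrain, and 4 were lower and 1 higher in the kidney translatome, with Zfp335 at −0.62 ± 0.04 and Zfp292 at −0.43 ± 0.04 among the lower and Zfp521 the higher at 0.49 ± 0.07.

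Brain ECs held less mRNA of most members that differed from the whole forebrain. Against the brain translatome 92 of 246 members were lower in the brain EC translatome and 33 higher, with a median log2 fold change of −0.25 (edgeR, adjusted p below 0.001). Over all 19103 rows 21.4% were lower and 24.8% higher, and over mRNA rows at 5 RPKM or more 31.2% were lower and 28.8% higher. The minimum level in the whole forebrain can leave out genes confined to ECs, so the member counts are a description. By name alone 101 of 359 rows were lower and 49 higher, with a median of −0.16. The split hung on the scaling: when counts were divided by library totals alone, the median of all mRNA rows moved from 0.01 to −0.28, and 144 members were then lower and 12 higher, beside 31.4% and 17.8% of all rows. RPKM is scaled in that manner, so an RPKM ratio lies below the fitted fold change in the EC comparisons.

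The members highest in brain ECs were the paired CCCH genes whose fingers are printed above and whose products bind AU-rich elements and speed mRNA decay. Zfp366, a Zfp row below the RPKM minimum and so not a member, rose more. That row averaged 1.09 RPKM in the brain translatome and 23.9 RPKM in brain ECs (log2 fold change 4.75 ± 0.10). Zfp36l1 stood at 24.5, 23.2 and 21.7 RPKM in the brain translatome and at 96.9, 98.8 and 93.8 RPKM in brain ECs (log2 fold change 2.35 ± 0.07, adjusted p = 7.13e-12). Zfp36l2 stood at 5.89, 6.51 and 6.12 RPKM and at 20.4, 22.0 and 21.0 RPKM (2.07 ± 0.07, adjusted p = 4.11e-11). The libraries did not overlap for either gene, as the naming rule required. Zfp187 rose by 1.34 ± 0.07, Zfp217, a component of corepressor complexes, by 1.17 ± 0.09, Zfp318 by 1.16 ± 0.08 and Zfp395 by 1.07 ± 0.08 on the log2 scale. The values of Zfp187 were 9.28, 9.31 and 9.46 RPKM in brain ECs against 4.42 to 4.63 RPKM in the brain translatome and 18.7 to 20.6 RPKM in the brain transcriptome, so its level in ECs lay between the whole-forebrain libraries of the 2 kinds.

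Lowest in brain ECs was Zfp428, at 41.4, 34.3 and 31.5 RPKM against 149 to 186 RPKM in the brain translatome (−1.92 ± 0.10, adjusted p = 2.49e-09). Zfp239 fell from 8.40 to 8.82 RPKM to 1.89 to 2.03 RPKM (−1.84 ± 0.09, adjusted p = 8.42e-10). Zfp663 fell by 1.74 ± 0.12, Zfp773 by 1.70 ± 0.10, Zfp286 by 1.62 ± 0.08 and Zfp558 by 1.59 ± 0.09 on the log2 scale. Members with a KRAB signature were lower in 50 of 102 cases and higher in 4 (median −0.39), and members without it were lower in 42 of 143 cases and higher in 29 (median −0.07); the difference between the classes was not tested. Among the genes of neural development Zfp238 fell by 1.37 ± 0.08 and Zfp536, a repressor of neuronal differentiation, by 0.62 ± 0.10, while Zfp703 rose by 0.91 ± 0.07, Zfp423 by 0.40 ± 0.07 and Zfp503 by 0.38 ± 0.07. The RPKM libraries of Zfp423 and Zfp503 overlapped between the groups. The neural marker levels given above moved with this comparison, and their part in these values was not tested.

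Against the brain transcriptome, which chose the members, 140 were lower in brain ECs and 23 higher with a median of −0.54, given as a description beside 24.3% and 26.8% of all 19522 rows and 33% and 33.6% of mRNA rows at 5 RPKM or more. Zfp57 was at 17.9, 18.1 and 17.2 RPKM in brain ECs, so that its fold change was −0.79 ± 0.07 against the translatome of the forebrain, while the transcriptome held 127 to 144 RPKM of it.

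Kidney ECs gave a like picture of smaller extent. Against the kidney translatome 56 members were lower in the kidney EC translatome and 20 higher, with a median log2 fold change of −0.10 (edgeR, adjusted p below 0.001), beside 15% lower and 16.7% higher of all 18940 rows and 16.6% lower and 23.2% higher of mRNA rows at 5 RPKM or more, whose median was 0.08. By name alone 63 of 360 rows were lower (17.5%, near those shares) and 28 higher (7.78%, below them), with a median of −0.17. The minimum level in the forebrain can leave out genes confined to ECs here too, so the member counts are a description. With counts divided by library totals the median of all mRNA rows moved from −0.03 to −0.39, and 139 members were lower and 5 higher, beside 29.9% and 8.26% of all rows. Leaving out a kidney translatome library lowered the count of higher members to 13 (replicate 1), 10 (replicate 2) or 9 (replicate 3), and 34, 37 and 32 members were lower without kidney EC replicate 1, kidney translatome replicate 1 and kidney translatome replicate 3. Members with a KRAB signature were lower in 27 of 102 cases and higher in 5, and members without it in 29 and 15 of 143.

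Zfp663 was the member lowest in kidney ECs, at 0.24, 0.17 and 0.25 RPKM against 0.87 to 1.02 RPKM in the kidney translatome (−1.72 ± 0.24, adjusted p = 9.70e-05), both low levels. Zfp239 was at 2.31, 2.46 and 2.11 RPKM against 7.98 to 9.18 RPKM (−1.51 ± 0.10, adjusted p = 3.57e-07). Zfp385a fell by 1.37 ± 0.06, Zfp580 by 1.27 ± 0.10, Zfp612 by 1.22 ± 0.11 and Zfp536 by 1.17 ± 0.18 on the log2 scale. Zfp536 stood at 0.45 to 0.67 RPKM in kidney ECs and lost its call without kidney EC replicate 1 (−1.15) and without kidney translatome replicate 1 (−1.09) or 3 (−1.21).

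Zfp287 and Zfp710 were the members highest in kidney ECs. Zfp366, below the RPKM minimum, averaged 2.36 RPKM in the kidney translatome and 12.8 RPKM in kidney ECs (log2 fold change 2.80 ± 0.09). Zfp710 stood at 17.8, 17.6 and 16.4 RPKM in the kidney translatome and at 28.7, 29.7 and 27.7 RPKM in kidney ECs (1.09 ± 0.06, adjusted p = 4.20e-08). Zfp287 was at 2.19, 1.92 and 1.88 RPKM and at 3.68, 3.15 and 3.33 RPKM (1.12 ± 0.11, adjusted p = 5.59e-06). Zfp711, an X-linked activator, rose by 0.96 ± 0.08, Zfp57 by 0.81 ± 0.10, Zfp41 by 0.80 ± 0.05 and Zfp36l2 by 0.80 ± 0.07. With library totals the value of Zfp57 was 0.44 and was not called. Zfp36l1 was at 102 to 110 RPKM in the kidney translatome and 86.4 to 99.4 RPKM in kidney ECs (0.19 ± 0.07, adjusted p = 0.034). It was not called, and its direction flipped with the scaling, since on the RPKM scale every kidney EC library lay below the translatome libraries.

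With the kidney transcriptome as the reference, 71 members were lower in kidney ECs and 25 higher (median −0.22), beside 18.4% lower and 22.7% higher of all 19335 rows and 20.3% lower and 33.8% higher of mRNA rows at 5 RPKM or more. By name alone 87 of 359 rows were lower and 34 higher (24.2% and 9.47%), with a median of −0.23, and the member counts are again a description. Zfp692 came first among the lower members at −1.85 ± 0.07, whereas against the kidney translatome it stood at 0.15 ± 0.11 and was not called (adjusted p = 0.288). Its RPKM was 4.74, 4.69 and 4.42 in kidney ECs, 4.79 to 5.90 in the kidney translatome and 21.5 to 23.0 in the kidney transcriptome. On the RPKM scale the kidney EC libraries thus lay just below the translatome libraries, the reverse of the sign of the fitted change, and the transcriptome stood far above both. Zfp612 fell by 1.83 ± 0.08, Zfp663 by 1.68 ± 0.20, Zfp811 by 1.49 ± 0.13, Zfp579 by 1.45 ± 0.09 and Zfp219 by 1.45 ± 0.06. Zfp41, Zfp667 and Zfp710 led the higher members at 1.19 ± 0.05, 1.19 ± 0.09 and 1.15 ± 0.04, followed by Zfp36l2 at 0.84, Zfp521 at 0.80 and Zfp524 at 0.75 ± 0.11. With library totals 179 members were lower and 5 higher, beside 35.5% and 11.6% of all rows, the median of all mRNA rows moved from −0.04 to −0.48, and the value of Zfp524 was 0.31 and was not called. Zfp524 also lost its call without kidney EC replicate 1 (0.71) or kidney transcriptome replicate 1 (0.71) or 3 (0.70). The count of higher members fell to 14 without kidney EC replicate 1 and to 15 without kidney transcriptome replicate 3. Both references share the same EC libraries.

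Between the EC populations 46 of 360 Zfp rows by name alone were higher and 45 lower in brain ECs, with a median of −0.03 (edgeR, adjusted p below 0.001). Of the members 37 were higher and 33 lower with a median of 0.01. Members were chosen for a minimum level in the brain and none in the kidney, so that genes low in the kidney are members through the brain alone, and their values are given here as a description. The background was 20.1% higher and 16.9% lower of 19238 rows, and 25.7% and 19.9% of mRNA rows at 5 RPKM or more. Zfp811, a KRAB zinc finger gene, stood at 5.59, 5.29 and 5.18 RPKM in brain ECs and at 0.57, 0.71 and 0.54 RPKM in kidney ECs (3.19 ± 0.12). In the whole organs it was at 15.7 to 18.6 RPKM in the brain and 1.16 to 1.43 RPKM in the kidney translatome, so it was below the level of the whole organ in the ECs of each. Zfp536 (2.46 ± 0.17), Zfp663 (2.38 ± 0.21), Zfp316 (1.79 ± 0.08), Zfp773 (1.71 ± 0.18) and Zfp558 (1.69 ± 0.14) followed. In all, 14 of 246 members were called higher by over 2-fold, beside 1470 of 9632 mRNA rows at 5 RPKM or more. Zfp536, Zfp663, Zfp316, Zfp773 and Zfp558 were each also higher in the brain than in the kidney translatome libraries.

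Lower in brain than in kidney ECs was Zfp503, a repressor known from the developing striatum, at 10.3, 9.88 and 10.2 RPKM against 30.4, 30.3 and 29.1 RPKM (−1.52 ± 0.06). Zfp930 fell by 1.29 ± 0.09, Zfp516 by 1.03 ± 0.09, Zfp26 by 1.02 ± 0.10, Zfp62 by 1.00 ± 0.07 and Zfp948 by 0.99 ± 0.10. In all, 5 members were called lower by over 2-fold, beside 389 of 9632 mRNA rows at 5 RPKM or more. Of 10 members of neural development 6 were higher in brain ECs, among them Zfp462 by 1.57 ± 0.10, Zfp238 by 1.42 ± 0.08, Zfp423 by 1.35 ± 0.08 and Zfp703 by 1.21 ± 0.07, and 1 was lower. Of mRNA rows at 5 RPKM or more 25.7% were higher and 19.9% lower. The list passed a minimum in the brain and none in the kidney, which favours higher values in the brain, so its count is a description. Neural markers summed to 390 to 495 RPKM in the brain EC and 12.2 to 14.0 RPKM in the kidney EC libraries, and their part in these differences was not tested.

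**Figure D5:**
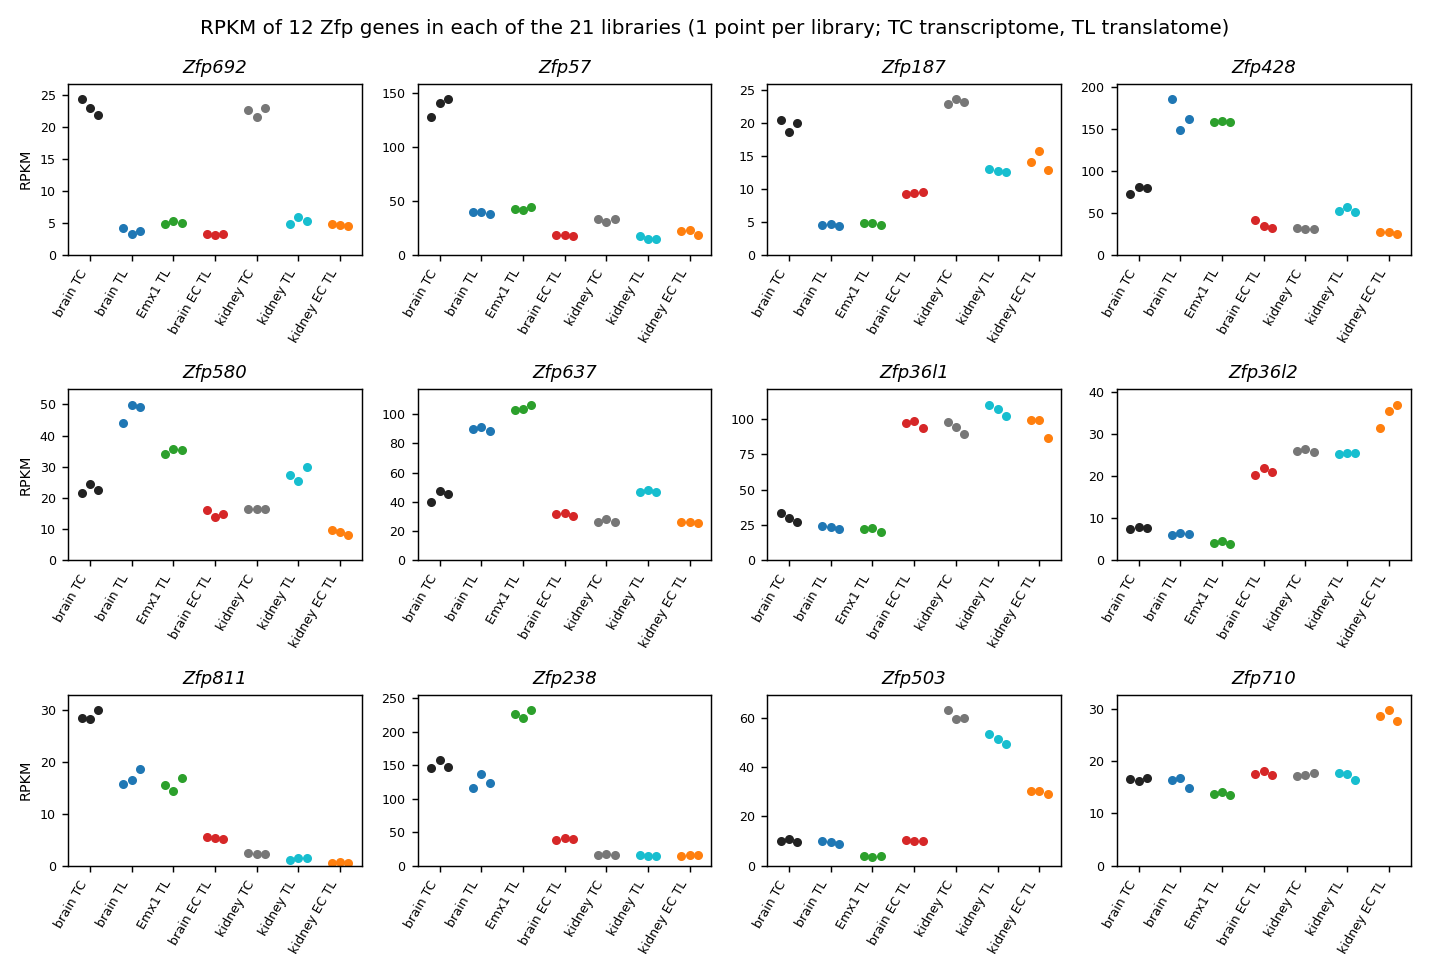
RPKM (vertical axis, from 0) of 12 Zfp genes in each library of the 7 groups, with 1 point per library; TC is transcriptome and TL translatome. Zfp692 lies between 21.5 and 24.3 RPKM in the transcriptome of both organs and at most at 5.90 RPKM in every translatome library, Zfp36l1 is at 93.8 to 98.8 RPKM in brain ECs and 21.7 to 24.5 RPKM in the brain translatome, and Zfp238 reaches 220 to 232 RPKM in the Emx1 lineage.

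In the Emx1 lineage, the excitatory neuron lineage of the cortex with its progenitors, more members were higher than lower. Against the brain translatome 47 members were higher and 8 lower, with a median log2 fold change of 0.155 (edgeR, adjusted p below 0.001), beside 9.2% higher and 12.8% lower of all 19006 rows and 15.4% higher and 10.8% lower of mRNA rows at 5 RPKM or more, whose median was 0.07. By name alone 49 of 360 rows were higher and 14 lower (13.6% and 3.89%), with a median of 0.15. The minimum level in the whole forebrain, which holds this lineage, can favour genes expressed in it, so the member counts are a description. The differences were small: no member was higher by over 2-fold and 1 was lower. Of 9632 mRNA rows at 5 RPKM or more, 34 were called higher and 274 lower by that much. The count of higher members was sensitive to the libraries, falling to 25, 27 and 24 without Emx1 replicates 1, 2 and 3 and to 26 and 30 without brain translatome replicates 1 and 2. Endothelial, mural and macrophage markers moved with this comparison. The 12 endothelial markers summed to 13.3 to 16.0 RPKM in the Emx1 and 152 to 172 RPKM in the brain translatome libraries, with 8 of them under 1 RPKM on average in the Emx1 libraries. The 5 mural markers summed to 5.56 to 6.23 RPKM and 39.1 to 51.7 RPKM, and the 5 macrophage markers to 1.76 to 2.11 RPKM and 29.4 to 31.0 RPKM. Their part, and that of the ventral neurons, was not tested.

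Zfp238 was the member highest in the Emx1 lineage, at 226, 220 and 232 RPKM against 116, 136 and 124 RPKM in the brain translatome (0.91 ± 0.06, adjusted p = 5.54e-09). Zfp40 rose by 0.63 ± 0.09, Zfp703 by 0.57 ± 0.06, Zfp280c by 0.53 ± 0.06, Zfp454 by 0.51 ± 0.08, Zfp944 by 0.51 ± 0.09 and Zfp462, a chromatin factor linked to neurodevelopment, by 0.46 ± 0.04. Zfp503 was the lowest member, at 3.96, 3.48 and 3.86 RPKM against 9.96, 9.49 and 8.93 RPKM (−1.27 ± 0.07, adjusted p = 1.51e-09). Its libraries did not overlap, as the naming rule required. Zfp810 at −0.53 ± 0.10, Zfp36l2 at −0.51 ± 0.07, Zfp9 at −0.46 ± 0.07, Zfp423 at −0.42 ± 0.05 and Zfp618 at −0.40 ± 0.07 followed. Zfp36l2 and Zfp423 were higher in brain ECs in the comparison above, which shares the brain translatome libraries. With a KRAB signature 23 of 102 members were higher and 2 lower, and without it 23 of 143 were higher and 6 lower. Against the brain transcriptome 59 members were higher and 89 lower (median −0.07), as a description beside 25.4% and 23.8% of 19471 rows and 43.5% and 25.5% of mRNA rows at 5 RPKM or more.

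The genes through which KRAB zinc finger proteins silence chromatin were followed as a list, of which 26 of 27 were found; their counts stand beside the shares of mRNA rows at 5 RPKM or more. In the kidney 13 were lower and 2 higher in the translatome (median −0.28; mRNA rows 25.3% and 25.2%), with Trim28, the corepressor itself, at −0.66 ± 0.06 and the histone methyltransferase gene Setdb1 at −0.83 ± 0.04, its partner Atf7ip at −0.93 ± 0.08 and the remodeller gene Chd4 at −1.46 ± 0.06, while the heterochromatin protein gene Cbx3 stood at 0.47 ± 0.07 and Mbd3 at 0.43 ± 0.04. In the forebrain 10 were lower and 3 higher (median −0.21; mRNA rows 27% and 31.2%), with Trim28 at −0.47 ± 0.06 (adjusted p = 4.95e-06) while Setdb1 fell by 1.00 ± 0.05 (adjusted p = 7.07e-10). Trim28 averaged 220 RPKM in the brain transcriptome and 329 RPKM in the kidney transcriptome, above every Zfp member in either. In kidney ECs 9 of the 26 were higher and 1 lower than in the kidney translatome (mRNA rows 23.2% and 16.6%). In brain ECs 7 were higher and 4 lower than in the brain translatome (mRNA rows 28.8% and 31.2%), so that the 26.9% higher was near the background. The DNA methyltransferase gene Dnmt3b stood at 1.16 ± 0.07 in kidney and 3.29 ± 0.09 in brain ECs. Trim28 was not called in either EC comparison, at 0.08 ± 0.07 (adjusted p = 0.331) and 0.04 ± 0.08 (adjusted p = 0.700).

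Other families of zinc finger genes at 5 RPKM or more were small. In the kidney translatome 6 of 27 Zbtb rows were lower and 3 higher (median −0.10), 3 of 12 Zscan and Zkscan rows were lower and none higher (median −0.27), 6 of 12 Zc3h rows, which carry CCCH fingers, were lower and none higher (median −0.30), and 1 of 15 Klf and Sp rows was lower and 1 higher (median 0.06). Of mRNA rows at 5 RPKM or more 25.3% were lower and 25.2% higher there. In the forebrain 14 of 27 Zbtb rows were lower and 1 higher (median −0.33), and 6 of 12 Zscan and Zkscan rows were lower (median −0.33). Lower too were 7 of 12 Zc3h rows (median −0.525) and 5 of 15 Klf and Sp rows (median −0.26). Of the Zfp members 47.2% were lower (median −0.32), and of mRNA rows 27%. The minimum used the brain transcriptome, so these are a description. In brain ECs 10 of 27 Zbtb rows were higher and 7 lower and 7 of 15 Klf and Sp rows were higher and 5 lower, with medians of 0.03 and 0.27 beside −0.25 for the Zfp members. Of mRNA rows at 5 RPKM or more 28.8% were higher and 31.2% lower in that comparison. In the Emx1 lineage none of the 27 Zbtb rows was higher and 3 (11.1%) were lower, beside 19.1% and 3.25% of the Zfp members. Of mRNA rows at 5 RPKM or more 15.4% were higher and 10.8% lower, so the Zbtb share lower was near the background. No difference between families was tested.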

How the data were processed

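RNA was sequenced from 21 libraries in 7 groups of 3. Per the file headers each deposited file lists 23827 annotated rows with counts of reads and RPKM values; the authors mapped reads to the mouse genome (GRCm38/mm10) with RUM and obtained both with a published RPKM script on UCSC RefSeq genes. Neither strand nor copies of a gene are separated by this counting. The deposited counts were compared with edgeR 4.0.16 in R 4.3.3 (quasi-likelihood test, TMM scaling, rows with at least 1 count among the samples compared, Benjamini-Hochberg adjustment over all rows tested), and a row was called at an adjusted p below 0.001. RPKM values served for levels and shares. Each comparison used its own 6 libraries, and the organ difference used 12. Depth ranged from 21760652 to 79231692 reads. p-values measure the spread between these libraries.

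The members and lists were chosen with earlier results of these data known. For each comparison the text names the 6 lowest and 6 highest called members whose RPKM did not overlap between groups, the 6 most abundant members, those next to the minimum, members of the role lists, the corepressor list and the 4 members most like the median profile. If a symbol was repeated, the row with most reads was kept, which dropped 2 rows. Proteins were translated from GENCODE vM21 coding sequences to count finger patterns and KRAB signatures.

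Same-numbered translatome and transcriptome libraries came from 1 homogenate per the study's sample list. Their deviations from the group means correlated at 0.39, 0.39 and 0.62 in the forebrain and at 0.67, 0.64 and 0.60 in the kidney. Same-numbered brain and kidney EC libraries correlated at 0.40, 0.14 and 0.17. Tested on simulated data with 200 changed genes, the fit recovered 177 for brain translatome against transcriptome (19116 genes, 4 false calls), 169 for kidney translatome against transcriptome (18999 genes, 6 false calls) and 160 for brain ECs against brain translatome (18786 genes, 5 false calls). The simulated libraries were independent, and only well-counted genes were changed, evenly up and down. Shared homogenates, the larger share of rows called and the scaling shift of the EC libraries were not simulated. The false-call counts therefore do not carry over to the real comparisons. Alternatives were DESeq2 1.42.0, other scalings, filters and RPKM minimums, a replicate block, libraries of the same run and each library left out.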

Additional observations from a re-analysis of the deposited data

Results flagged for a closer look

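The translatome to transcriptome fold change differed between the organs for Zfp rows chosen by name alone, by the interaction term in edgeR over 12 libraries: 33 rows had a higher value in the kidney and 4 a lower one at an adjusted p below 0.001. Of the members named at the ends of the forebrain comparison, 5 were among these rows. The kidney minus brain difference in log2 fold change was 1.26 ± 0.07 for Zfp187, 0.85 ± 0.13 for Zfp945, 0.77 ± 0.10 for Zfp57, 0.72 ± 0.07 for Zfp687 and 0.69 ± 0.08 for Zfp280c. All 5 were below zero in both organs. Since the brain transcriptome chose the members, these 5 values are given without a test.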

How the results depend on the processing

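The median between the brain and kidney ECs, 0.0094, lay near zero and changed sign with library totals (−0.0216), with a minimum of 3 RPKM (−0.0057) and without brain EC replicate 2 (−0.0218) or kidney EC replicate 2 (−0.0069). No other median, and no fold change of a named gene followed through the alternatives, changed sign under the alternatives run. Of 1032 values of single named genes under alternatives, 1012 kept their direction and their side of the threshold and 20 kept their direction only.

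With the replicate block, which pairs libraries of 1 homogenate, the kidney translatome comparison called 49 members higher and 108 lower (66 and 121 rows by name alone), and the organ difference 88 rows higher and 7 lower. In the Emx1 comparison, whose libraries share only a number, the replicate block gave 25 higher. It moved no other count by over 1.5 times. Within 1 sequencing run the forebrain comparison gave 9 higher (10 by name alone) and a median of −0.3394, and the kidney comparison 11 higher and 39 lower (11 and 39 by name alone) and a median of −0.1596.

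With library totals as the scaling, brain ECs against the brain translatome gave 12 higher, 144 lower and a median of −0.5425; kidney ECs gave 5, 139 and −0.4722 against the translatome and 5, 179 and −0.6558 against the transcriptome; the Emx1 comparison gave 30 higher and a median of 0.1036; and the forebrain median was −0.3451. With TMM on mRNA rows the medians were −0.3464 (forebrain), −0.1139 and −0.2394 (kidney ECs against translatome and transcriptome) and 0.1440 (Emx1). DESeq2 gave medians of −0.3402 (forebrain) and 0.1411 (Emx1), 35 members higher in the kidney (43 by name alone), and 61 higher and 7 lower for the organ difference. Size factors of the DESeq2 kind in edgeR gave −0.3402 and 0.1423. A minimum of 10 counts in 3 libraries gave medians of −0.3386 (forebrain), −0.1235 (kidney ECs against translatome, 13 higher) and 0.1346 (Emx1). The cause of these shifts was not tested.

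At an adjusted p below 0.05 the counts higher and lower were 46 and 108 in the kidney (63 and 127 by name alone), 41 and 99 and 49 and 128 in kidney ECs against translatome and transcriptome, 126 and 20 in the Emx1 lineage, 73 and 73 between the ECs and 113 and 13 for the organ difference, with 54 higher in brain ECs. A minimum of 10 RPKM, which leaves fewer members, gave 70 lower and a median of −0.2667 in the forebrain, 20 higher in brain ECs, 14 higher in kidney ECs against the transcriptome, and 20 higher and 18 lower between the ECs. A minimum of 3 RPKM gave 13 lower in the Emx1 lineage and a median of −0.1283 in kidney ECs against the translatome.

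With each library left out in turn, members higher and lower ranged from 21 to 24 and 104 to 113 in the forebrain (22 to 25 and 122 to 137 by name alone), from 15 to 20 and 52 to 64 in the kidney (17 to 22 and 53 to 67 by name alone), from 23 to 32 and 73 to 96 in brain ECs, from 9 to 17 and 32 to 50 in kidney ECs against the translatome and 14 to 23 and 53 to 79 against the transcriptome, from 24 to 42 and 6 to 8 in the Emx1 lineage, and from 30 to 36 and 24 to 32 between the ECs. The medians ranged from −0.3446 to −0.2939, −0.1447 to −0.1018, −0.2746 to −0.2098, −0.1216 to −0.0960, −0.2472 to −0.2144, 0.1416 to 0.1604 and −0.0218 to 0.0244 in the same order.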
